A study of Mus musculus with 24 samples.

Results

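The genes described here encode the enzymes that attach ubiquitin to proteins and take it off again: the E1 gene Uba1, the E2 conjugating family Ube2, the cullins (Cul), the F-box families Fbxw, Fbxl and Fbxo, the ubiquitin-specific proteases Usp, and the ligase Xiap. They were chosen by symbol among the protein-coding genes of GENCODE vM21 on GRCm38, and 180 of 21951 genes matched: 56 Usp, 37 Ube2, 36 Fbxo, 23 Fbxw, 18 Fbxl and 8 Cul genes with Uba1 and Xiap. The symbol rule takes in Usp6nl, a GTPase-activating protein for Rab proteins and not a protease, and E2s that carry other small modifiers (Ube2m and Ube2f for NEDD8).

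Ubiquitin is activated by an E1, passed to an E2 and placed on a substrate by a ligase. In cullin ligases the cullin is the scaffold and an F-box protein can be the part that recognises the substrate, while Usp proteases remove ubiquitin from it. In the developing cortex these enzymes are known for cell cycle exit of progenitors, protein turnover and axon and synapse growth. STAU2 binds double-stranded stretches of RNA and is known for carrying messenger RNAs to their place in neurons, for their stability, and for their unequal sharing when progenitors divide.

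In RNA immunoprecipitation (RIP), an antibody against STAU2 pulled the protein out of mouse cortical lysate, and the RNA that came with it was sequenced as well as that of the starting lysate, the input. The 24 libraries form 8 groups of 3: a STAU2 RIP and an input group on each of the embryonic days E11.5, E13.5, E15.5 and also E17.5. Each biological replicate was whole cortex pooled over a litter, and the labels name no strain and no treatment. A RIP with another antibody was not sequenced, so input was the reference. The deposited values are 8 lists of peaks, 1 per day and strand, with 6530, 5871, 10265 and 6341 peaks on the 4 days. Their columns have no names, and the one read as the authors' p, from its values, gives the ranks used here. The 3 RIP and 3 input libraries of a day stand behind 1 pair of lists, so no replicate has a value of its own and no difference between days could be set against replicate spread. The lists state neither the direction of a peak (RIP above input or below it) nor any read total, so depth is unknown and a missing peak cannot be told from one not detectable at that depth. Of 12 genes that mark cortical progenitors and neurons, 9 had a peak; 5 of 6 vessel and meninges genes, 1 of 4 microglia genes (Csf1r) and 0 of 5 haemoglobin genes did. The vessel and meninges genes fell on E13.5 (4 genes) and E15.5 (1 gene), and their part in the results was not tested.

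A gene was counted on a day when a peak on its strand shared at least 1 bp with an exon. By that rule 82 of the 180 genes had a peak on some day (45.6%, exact 95% interval 38.1 to 53.1%, which covers counting error only), with 249 peaks in all, beside 30.1% of all protein-coding genes. On E11.5, 25 genes had a peak (13.9%, against 9.09% of all protein-coding genes). On E13.5 there were 35 (19.4%, against 11.8%), on E15.5 51 (28.3%, against 19.9%) and on E17.5 41 (22.8%, against 13.6%). Cortex holds several cell types, so fewer cells of a type and less RNA per cell cannot be told apart. The ubiquitin genes were above the background share on each day, and both shares were highest on E15.5, the day with the longest lists. That background takes in all annotated protein-coding genes, expressed in cortex or not, and expression was not compared. Genes with peaks were longer: the median exonic length was 4854.5 bp in the 82 and 3997.5 bp in the other 98, and over all protein-coding genes 4655.5 bp with a peak and 3012 bp without. With all genes sorted into 5 length classes of like size, 16 of 30 ubiquitin genes of class 3 (2854 to 4268 bp) had a peak (53.3%, against 31.8% of all genes in the class), in class 4 30 of 56 did (53.6%, against 38.2%), and in class 5, the longest, 27 of 46 did (58.7%, against 45.7%). In class 2 (1687 to 2853 bp) the share was near that of all genes, at 9 of 36 (25%, against 23.0%). In the shortest class 0 of 12 did, against 526 of 4391 genes.

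**Figure D1:**
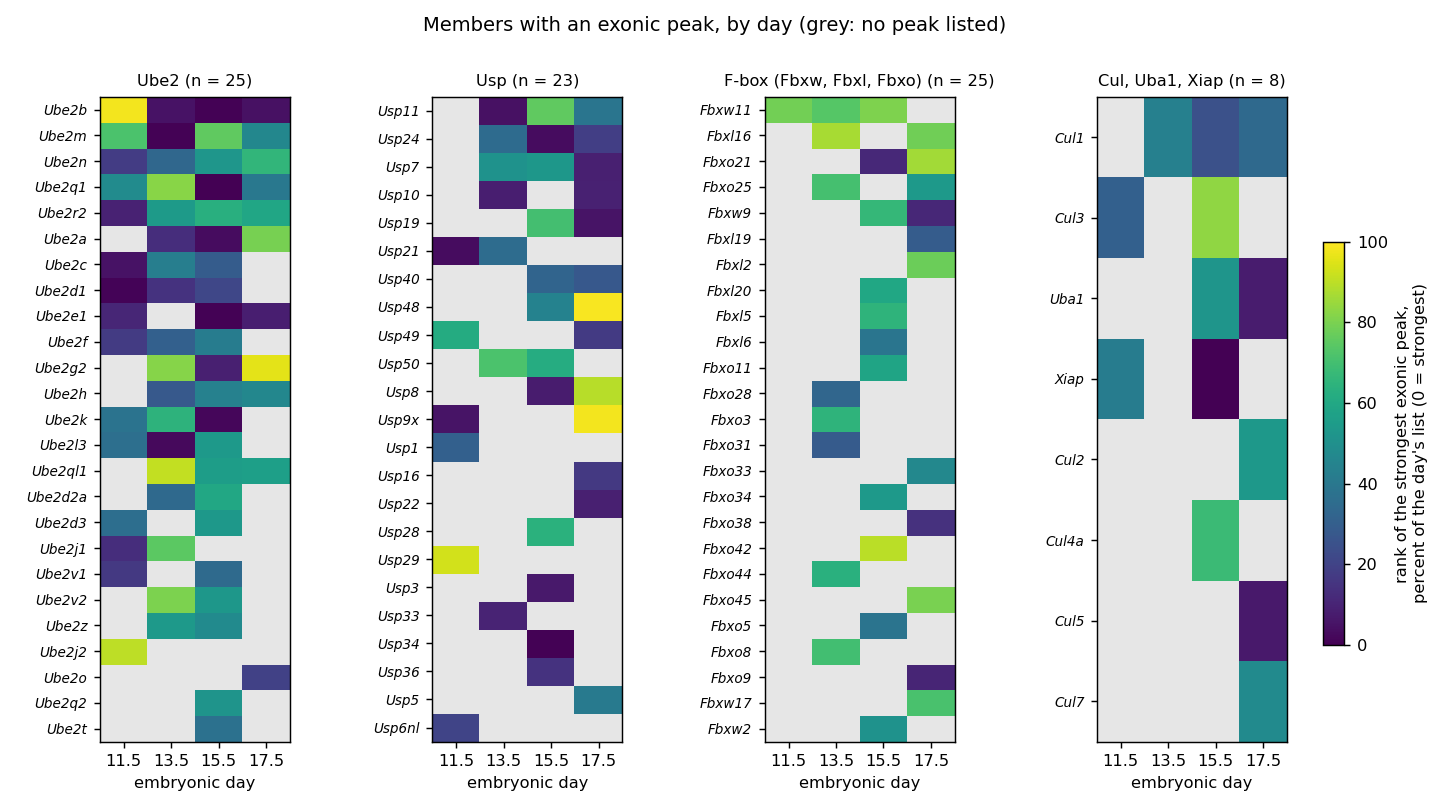
Each row is a gene with an exonic peak, each column an embryonic day, and the colour gives the rank of the gene's strongest peak by the authors' p as a percent of that day's list (0 is the strongest, grey means no peak listed). A Ube2 gene whose values are not reported is not drawn. The Ube2 genes fill more columns than the 25 F-box genes, of which only Fbxw11 had a peak on 3 days. The E13.5 peaks of Fbxw11 shared only 1 and 16 bp with exons.

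Among the families, Ube2 had the highest shares on the first 3 days. Of the 37 Ube2 genes, 26 had a peak on some day (70.3%, interval 53.0 to 84.1%): 16 on E11.5 (43.2%), 19 on E13.5 (51.4%), 23 on E15.5 (62.2%) and 12 on E17.5 (32.4%). Of the 143 other genes, 9 had a peak on E11.5 (6.29%), 16 on E13.5 (11.2%), 28 on E15.5 (19.6%) and 29 on E17.5 (20.3%). Set beside the background of 9.09, 11.8, 19.9 and 13.6%, the others were near it on E13.5 and E15.5, below it on E11.5 and above it on E17.5. From E15.5 to E17.5 the number of Ube2 genes with a peak went from 23 to 12, while that of the other genes went from 28 to 29. The intervals of single families are wide, since they rest on 8 to 56 genes, and no test was made between families. The Ube2 genes had a median exonic length of 4371 bp, against 6543 bp for the Usp genes and 3498 bp for all protein-coding genes, and in length class 2, 7 of the 9 Ube2 genes had a peak, against 9 of the 36 ubiquitin genes and 23.0% of all genes there.

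**Figure D2:**
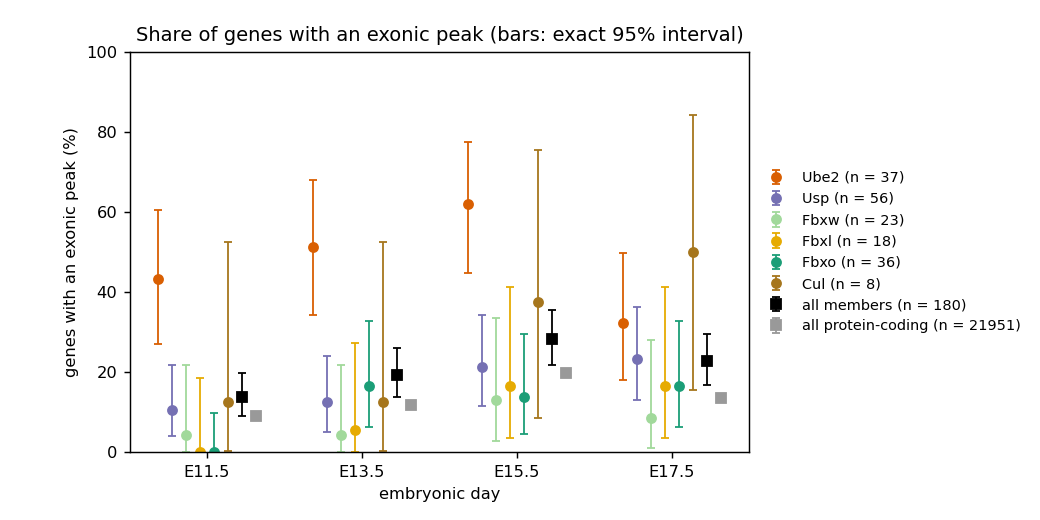
Points give the percent of genes in each family with an exonic peak on each day, and bars the exact 95% interval from counting genes; squares are all 180 ubiquitin genes and all 21951 protein-coding genes. Ube2 is the highest family on E11.5, E13.5 and E15.5, and Cul, with 4 of 8 genes, on E17.5.

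All 6 of the genes with a peak on all 4 days were Ube2 genes, among them Ube2b, Ube2m, Ube2n, Ube2q1 and Ube2r2 (3.33% of the 180, against 1.77% of all protein-coding genes). Another 10 Ube2 genes had peaks on 3 days (27.0% of the family, against 4.83% of all protein-coding genes). No peak was listed for 11 (29.7%, against 69.85%): Ube2cbp, Ube2d2b, Ube2dnl1, Ube2dnl2, Ube2e2, Ube2e3, Ube2g1, Ube2l6, Ube2s, Ube2u and Ube2w. The count of 6 is sensitive to the rule, since it was 3 when at least 50% of a peak had to lie in exons, 2 with lists of equal length and 0 in the stronger 50% of each list. With lists of equal length or in the stronger 50%, the share was not above that of all protein-coding genes. For the rule of at least 50% in exons, the share over all genes is not given here. Over all 82 genes, 39 had a peak on 1 day (47.6%, against 47.7% of all protein-coding genes with a peak). There were 22 on 2 days (26.8%, against 30.4%), 15 on 3 (18.3%, against 16.0%) and 6 on 4 (7.32%, against 5.88%).

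Ube2b, a RAD6-type E2 known for DNA damage tolerance and histone H2B ubiquitination, carried the only position among these genes with overlapping peaks on all 4 days. Together they covered chr11:51986619-51986768 in the last exon, on the minus strand (GRCm38). The peaks of E15.5 and E17.5 crossed the stop codon and held 87 coding bases, those of E11.5 and E13.5 lay wholly in the 3′ UTR, and the 49 bp common to all of them began just past the end of the coding sequence. The rank of this peak was 6412 of 6530 on E11.5, 1716 of 5871 on E13.5, 771 of 10265 on E15.5 and 283 of 6341 on E17.5, so it stood near the end of the list on the first day and in the top 4.46% on the last. Another Ube2b peak, at rank 55 on E15.5, was centred 227 nt past the coding sequence (chr11:51986377-51986533). On E13.5 its best peak was a 6396 bp block at rank 296. It held 336 bases in exons of any isoform, and 88 in exons 2 to 4 of the longest coding isoform. The 30 bases below are the centre of the stretch shared by the 4 days, and, for the E15.5 peak, the 30 bases with the most paired bases in its predicted minimum free energy fold, with paired bases in capitals. Both are read 5′ to 3′ from the GENCODE transcripts, as are all sequences here, and the first has no base marked.
Ube2b, 4 days, chr11:51986639-51986668: tgctcatccttcatcgttgttgtgtataat
Ube2b, E15.5, chr11:51986395-51986424: GGAGTtttCAtGACAGaATATACACATTtT

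Ube2n and Ube2r2 had peaks on all 4 days whose place in the 3′ UTR differed between days. Ube2n encodes the E2 that builds signalling chains together with a Ube2v partner. Its 3′ UTR peaks on E11.5 (2 peaks) and E13.5 (2 peaks) were centred 129 to 338 nt past the coding sequence and overlapped between the days at 2 positions. On E15.5 and E17.5 the single peaks were centred 3163 and 3138 nt past it, close to the end of the 3345 nt 3′ UTR, and overlapped each other by 36 bp. The ranks were 1168 and 3899 on E11.5, 1952 and 2623 on E13.5, 5377 on E15.5 and 4165 on E17.5, so none of these lay in the strongest 10% of its list. A further pair of E11.5 peaks lay in coding exons 2 and 3, where 4 and 5 other loci hold near-identical copies. The 30 bases at the centre of the early and of the late overlap are shown to place them, with no base marked.
Ube2n, E11.5 and E13.5, chr10:95542436-95542465: ctttggtgattacatgcacattagcaaatc
Ube2n, E15.5 and E17.5, chr10:95545444-95545473: gtgagatgagaaattgggtacctaacccac

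In Ube2r2, a CDC34-type E2 that works with cullin ligases, each of 3 separate 3′ UTR positions was shared by E11.5 and 1 later day: with E13.5 at 2152 to 2164 nt past the coding sequence, with E15.5 at 214 to 335 nt and with E17.5 at 634 to 649 nt. Its best rank was 636 of 6530, on E11.5, and its ranks from E13.5 on were 3196, 6474 and 3750. The gene thus had a peak on every day with no position present on more than 2.

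**Figure D3:**
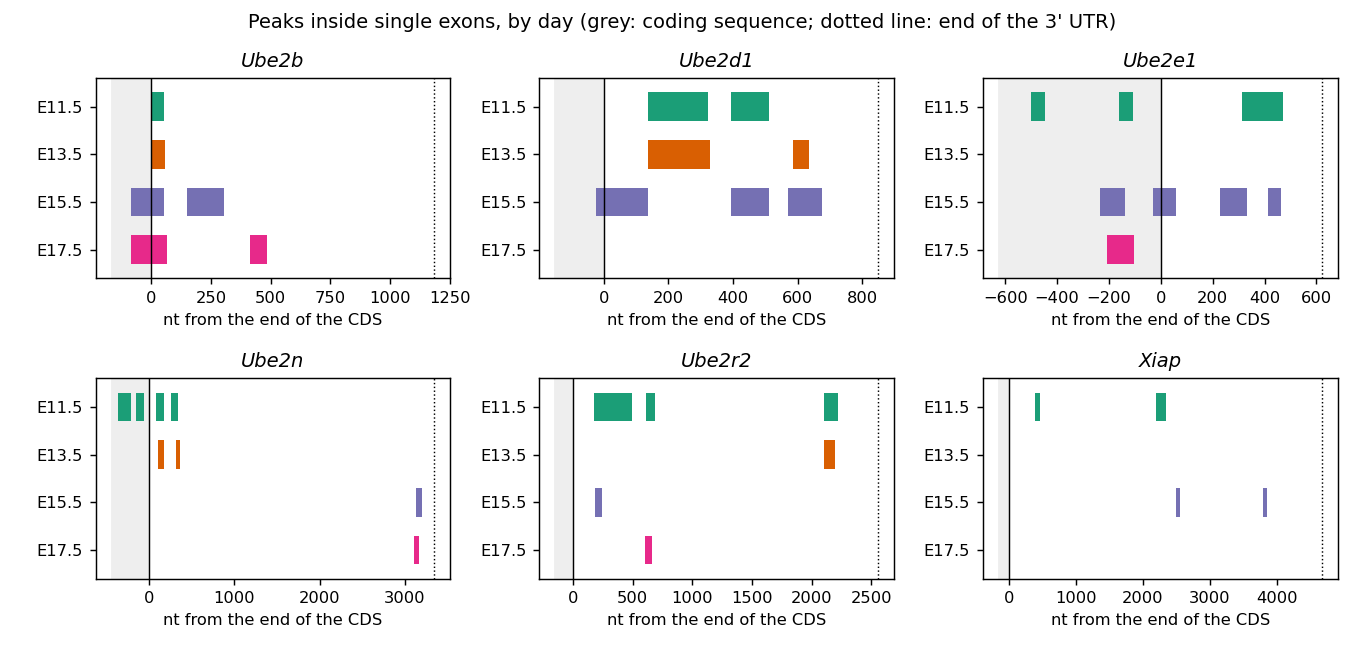
Bars are peaks that lay inside a single exon of the longest coding isoform, placed by distance in nt from the end of the coding sequence, with days as rows; wide peaks over introns are left out. Ube2b has a peak at or just past the end of the coding sequence on all 4 days, and the Ube2n peaks of E15.5 and E17.5 lie at 3163 and 3138 nt while those of E11.5 and E13.5 lie at or before 338 nt.

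Ube2m and Ube2q1 each had a peak near the top of a day's list. Ube2m, the E2 that loads NEDD8 onto most cullins, ranked 24 of 5871 on E13.5 with an 1121 bp peak (chr7:13036593-13037713) over exons 1 and 2. Of that peak 533 bp lay in exons of any isoform, and 161 bp in those of the longest coding isoform. On the other days it lay lower, at rank 4687 on E11.5 in exon 4, 7761 on E15.5 and 2930 on E17.5, the last pair in the final exon. A peak opposite to its strand was also listed on E13.5, at chr7:13036217-13036295. Ube2q1, an E2 with an extended N-terminal part, ranked 27 of 10265 on E15.5 with a 521 bp peak over exons 12 and 13 and the intron between them, of which 102 bp were exonic. A 585 bp peak covered the whole of that stretch on E17.5 at rank 2541, and the E11.5 and E13.5 peaks lay in the 3′ UTR at ranks 3138 and 4827.

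Ube2e1 and Ube2c had recurring peaks in coding sequence. In Ube2e1, an E2 of the same class as Ube2d, overlapping peaks lay in exon 5 on E11.5 (rank 692), E15.5 (rank 1795) and E17.5 (rank 542), with none on E13.5. Its strongest peak was in the 3′ UTR on E15.5, at rank 41 (chr14:18283010-18283115). The 133 bp below are the union of the 3 coding peaks, chr14:18284280-18284412 on the minus strand, with the 22 bp common to all in capitals. These peaks have near-identical copies in 1 to 3 processed pseudogenes, and how the authors placed reads that fit both is not given in the sources used here.
Ube2e1, coding, 3 days: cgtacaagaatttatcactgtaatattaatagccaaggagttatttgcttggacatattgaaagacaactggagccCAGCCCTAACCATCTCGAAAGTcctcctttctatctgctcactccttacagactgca

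Ube2c, the E2 that starts chains for the anaphase-promoting complex in mitosis, had overlapping peaks over exon 4 on E11.5 (rank 310, an 873 bp peak over exons 3 and 4), E13.5 (rank 2519) and E15.5 (rank 2980), and none on E17.5. The 149 bp E13.5 peak, chr2:164771909-164772057, is printed with the bases that pair in its predicted fold in capitals; the fold has -26.0 kcal/mol per 100 nt, against a median of -21.0 over all coding peaks. Near-identical copies of it lie in 2 processed pseudogenes.
Ube2c, coding, E13.5: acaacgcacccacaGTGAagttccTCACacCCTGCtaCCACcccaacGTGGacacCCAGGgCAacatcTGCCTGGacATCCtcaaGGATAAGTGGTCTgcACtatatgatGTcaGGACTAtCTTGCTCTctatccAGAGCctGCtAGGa

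Ube2d1, an E2 that serves many ligases, had 7 peaks in or at the start of its 849 nt 3′ UTR, none of them on E17.5. The peak chr10:71255319-71255435 had the same bounds on E11.5 and E15.5, yet ranked 73 of 6530 on the first day and 10265 of 10265, the last place, on the other. A neighbouring position was shared by E11.5 and E13.5 (184 bp) and another by E13.5 and E15.5 (49 bp). Ube2f, the E2 that loads NEDD8 for RNF7-containing cullin ligases, had 43 bp in common on E11.5, E13.5 and E15.5 at ranks 2951, 1805 and 5715, centred 467 to 481 nt past the coding sequence. For both genes the 30 bases at the centre of the shared stretch are given, with no base marked.
Ube2d1, E11.5 and E15.5, chr10:71255363-71255392: atagactaaatatattctatgtcaactcct
Ube2f, E11.5, E13.5 and E15.5, chr1:91285818-91285847: acctagatgtgaagcttcccagaatgcata

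Among the remaining E2s, Ube2l3, which serves HECT and RBR ligases, ranked 140 of 5871 on E13.5 in a 3′ UTR exon outside the longest coding isoform. Ube2k had the most exonic peaks of any ubiquitin gene, 10, with its best at rank 198 on E15.5 across the stop codon; 3 of the 10 were 9875 to 43887 bp wide and lay mostly over introns. Ube2a, the close relative of Ube2b, had its best peak on E15.5 at rank 345 and shared that 3′ UTR position with E17.5. Ube2ql1 had 2 positions shared by E15.5 and E17.5, a coding and a 3′ UTR one. Ube2j2, an E2 of the endoplasmic reticulum membrane, had a peak on E11.5 alone, at rank 5872 of 6530, and Ube2o, a large E2 with ligase activity, on E17.5 alone, best at rank 1234 of 6341. The only Ube2j2 peak has a near-identical copy in a processed pseudogene.

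Xiap, a RING ligase that inhibits caspases, held the best rank of all 249 peaks: rank 6 of 10265 on E15.5, a 54 bp peak at chrX:42107487-42107540, 2529 nt past the coding sequence in a 4672 nt 3′ UTR. The authors' deposited table gives it p = 9.297e-07, q = 0.004221 and a signal of 8.365, while the same day's Ube2b peak at rank 55 has a signal of 374.2 in the authors' deposited table, so a good rank did not go with a high signal there. Its other peaks ranked 7637 on E15.5, and 2733 and 3719 on E11.5, at other positions of the 3′ UTR; none was listed on E13.5 or E17.5. The peak was poor in G and C (20.4%, against a median of 47.9% over 9365 3′ UTR peaks) and its predicted fold was weak (-6.67 kcal/mol per 100 nt, against -19.4). The 30 bases with the most pairs in that fold are printed with paired bases in capitals.
Xiap, E15.5, chrX:42107508-42107537: GTTATtttGTAATagttactTTCATtTGTT

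Uba1, the main E1, had a peak on E15.5 in the coding part of exon 26 (rank 5362) and on E17.5 over exons 23 to 25 (rank 473 of 6341, 822 bp with 330 exonic). Of the cullins, 6 of 8 had a peak, on 1 day in 4 of them; Cul4b and Cul9 had none. Cul1, the scaffold of SCF ligases, had peaks on E13.5 (rank 2549), E15.5 (rank 2559) and E17.5 (rank 2157) in its last exons (the best rank of each day); a 1411 bp peak on E13.5 joined them, and the E15.5 and E17.5 peaks did not overlap. Cul3, which works with BTB proteins, had a coding peak on E11.5 (rank 2001) and a 3′ UTR peak on E15.5 (rank 8567). Cul4a, which binds DDB1, had peaks on E15.5 alone (best rank 6979). The other 3 had peaks on E17.5 alone: Cul5 at rank 429, and Cul7 and Cul2 at ranks 3027 and 3369. Cul5 and Cul2 form ligases with the elongins, and Cul7 with FBXW8. The E17.5 peak of Cul5 lay at chr9:53614799-53614853 on the minus strand, 2990 nt into a 3234 nt 3′ UTR, and its best-paired 30 bases are printed with paired bases in capitals.
Cul5, E17.5, chr9:53614805-53614834: CATCGTGaccTGTACAgttttgaaTGTGCA

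On E11.5 none of 36 Fbxo and none of 18 Fbxl genes had a peak (upper limits 9.74 and 18.5%, which cover the background of 9.09%), and 1 of 23 Fbxw genes did, Fbxw11, which encodes a beta-TrCP protein that recognises phosphorylated substrates. On E13.5 there were 6 Fbxo, 1 Fbxl and 1 Fbxw genes (16.7, 5.56 and 4.35%, against 11.8%), the last again Fbxw11, by 1 and 16 bp of exon. On E15.5 there were 5, 3 and 3 (13.9, 16.7 and 13.04%, against 19.9%), and on E17.5 6, 3 and 2 (16.7, 16.7 and 8.70%, against 13.6%). The interval of each family covered the background on each of these days. Over all days 15 Fbxo (41.7%), 6 Fbxl (33.3%) and 4 Fbxw genes (17.4%) had a peak, against 30.1% of all protein-coding genes, a share that the interval of each family covers. Of these 25, 20 had it on 1 day, against 47.7% of all protein-coding genes with a peak. On E13.5 alone there were Fbxo3, Fbxo8, Fbxo28, Fbxo31 and Fbxo44. On E15.5 alone there were Fbxw2, Fbxl5, Fbxl6, Fbxl20, Fbxo5, Fbxo11, Fbxo34 and Fbxo42, among them Fbxo5, an inhibitor of the anaphase-promoting complex (3 peaks, best rank 3952), and Fbxl20, known at synapses (rank 6105). The only Fbxo34 peak has a near-identical copy in a processed pseudogene. On E17.5 alone there were Fbxw17, Fbxl2, Fbxl19, Fbxo9, Fbxo33, Fbxo38 and Fbxo45, of which Fbxo9 (rank 651 of 6341) and Fbxo38 (rank 900) ranked best and Fbxo45, a partner of an axon-growth ligase, ranked 5073. The best F-box rank on E15.5 was that of Fbxo21, at 1197 of 10265.

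Of the 56 Usp genes, 23 had a peak (41.1%, interval 28.1 to 55.0%, which covers the background of 30.1%). There were 6 on E11.5, 7 on E13.5 and 12 on E15.5 (10.7, 12.5 and 21.4%), near the background of 9.09, 11.8 and 19.9%, and 13 on E17.5 (23.2%, against 13.6%). None had a peak on all 4 days, and 3 had peaks on 3 days: Usp7, a protease of the MDM2 and p53 axis, Usp11 and Usp24. Usp34, known for acting on axin in Wnt signalling, held the best rank, 46 of 10265 on E15.5, in coding exon 51 of 80 (chr11:23441121-23441169). Its next peak that day ranked 9243 and shared 2 bp with an exon. On E17.5 the best was Usp19, which has a form anchored in the endoplasmic reticulum membrane, at rank 343 of 6341 in coding exon 21 (chr9:108498879-108498969). Both coding peaks are printed whole, with bases that pair in the predicted fold in capitals; the folds differ in strength, at -15.5 kcal/mol per 100 nt for Usp34 and -33.4 for Usp19.
Usp34, coding, E15.5: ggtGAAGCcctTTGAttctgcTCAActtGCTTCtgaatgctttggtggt
Usp19, coding, E17.5: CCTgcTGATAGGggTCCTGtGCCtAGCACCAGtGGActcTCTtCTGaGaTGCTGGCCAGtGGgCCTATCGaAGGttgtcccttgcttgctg

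The best Usp ranks of E11.5 and E13.5 were in 3′ UTRs or at stop codons. Usp21, a deubiquitinase of histones among other substrates, ranked 223 of 6530 on E11.5 across its stop codon, and had other peaks on E13.5 but none later. Usp9x, a large X-linked protease known in neural development, ranked 350 on E11.5 and 6222 of 6341 on E17.5, at separate positions 2855 and 3268 nt past the coding sequence. Usp11 ranked 272 of 5871 on E13.5 across the stop codon, and its peaks on E15.5 (rank 7760) and E17.5 (best rank 2454) lay over exons 19 to 21, where each overlapped a neighbour but no base was common to the 3 days. Usp10, which acts on p53 in the cytoplasm, had a 3′ UTR position shared by E13.5 (rank 488) and E17.5 (rank 574), 48 bp long, with no peak on E15.5. Usp33 ranked 583 on E13.5 and had no other peak.
Usp10, E13.5 and E17.5, chr8:119957418-119957447, no base marked: atgatggactgacaattcccagtgtctgct

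On E11.5 alone there were Usp1, a partner of DNA repair (best rank 2003), Usp29 (rank 6077) and Usp6nl (rank 1327), and on E17.5 alone Usp22, the deubiquitinase of the SAGA complex (rank 554), Usp16, which acts on histone H2A (rank 1056), and Usp5 (rank 2595). A 53 bp Usp1 peak has a near-identical copy in a processed pseudogene; its other peaks do not. Usp7 had 8 peaks, of which 3 of the 5 on E13.5 were 1687 to 5427 bp wide and shared 18 to 52 bp with exons; its best rank was 555, on E17.5, in the 3′ UTR. Exon contact was as small as 1 bp of a 517 bp peak, for Fbxw11 on E13.5.

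Between consecutive days the list turned over. From E11.5 to E13.5, 21 of the 180 genes gained a peak (background 7.88% of all protein-coding genes) and 11 lost it (background 5.21%), and 14 kept one. From E13.5 to E15.5, 27 were gained (background 12.1%), 11 lost (background 3.99%) and 24 kept. At the step from E15.5 to E17.5 there were 19 gained genes (background 5.04%), 29 lost (background 11.4%) and 22 kept. Kept genes were 56% of the earlier day's at the first step, 68.6% at the second and 43.1% at the last, against 42.7, 66.1 and 42.8% over all protein-coding genes. Over the whole interval from E11.5 to E17.5, 32 of the 180 genes were gained (background 10.3%), 16 lost (background 5.84%) and 9 kept. A gain is a peak in 1 list and none in the other, and with no replicate lists it carries no test. Peaks on a single day were held by 4 of the 180 genes on E11.5 (background 2.38% of all genes) and 6 on E13.5 (background 2.29%). There were 15 on E15.5 (background 6.18%) and 14 on E17.5 (background 3.54%).

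Most peaks lay in 3′ UTRs. By midpoint, over all isoforms and with 3′ UTR read first, 157 of the 249 were in the 3′ UTR (63.1%, interval 56.7 to 69.1%), 45 in coding sequence (18.1%), 11 in noncoding exons and 36 counted as introns. The last had a midpoint outside the gene's exons and also touched an exon. They were not all wide, since that of Fbxo11 on E15.5 was 100 bp. Over all protein-coding genes 52.2% were in the 3′ UTR and 24.3% in coding sequence. The intervals of peak shares given here count each peak as independent. The 249 peaks come from 82 genes and 205 positions, some of them on several days, so these intervals are too narrow. The 3′ UTR share of the ubiquitin genes was 56% on E11.5, 62.7% on E13.5, 63.3% on E15.5 and 69.0% on E17.5, beside 41.2, 51.6, 55.3 and 55.3% over all genes. Counted by gene, 17 ubiquitin genes had a 3′ UTR peak on E11.5 (9.44%, against 4.7% of all protein-coding genes), 25 on E13.5 (13.9%, against 7.19%), 37 on E15.5 (20.6%, against 13.3%) and 35 on E17.5 (19.4%, against 8.96%). Coding peaks were held by 11 genes on E11.5 (6.11%, against 3.49%), 5 on E13.5 (2.78%, against 3.69%), 15 on E15.5 (8.33%, against 5.88%) and 9 on E17.5 (5%, against 3.81%). The E13.5 share rests on 5 genes and was near the background. Counts by gene were made with this midpoint rule only. None of the 249 lay in a 5′ UTR (upper limit 1.47%), where 1.83% of all peaks did. The coding share depends on the isoform: by most bases in the longest coding isoform it was 44% on E11.5, 31.4% on E13.5, 35.6% on E15.5 and 34.5% on E17.5, in place of 26, 9.80, 20 and 15.5%. The 3′ UTR share then was 50, 54.9, 53.3 and 63.8%. Shares over all genes were not computed by the longest isoform, so the excess over them holds for the midpoint rule only. Among families, 69.0% of 126 Ube2 peaks and 53.2% of 62 Usp peaks were in the 3′ UTR, with intervals of 60.2 to 77.0% and 40.1 to 66.0% that overlap.

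**Figure D4:**
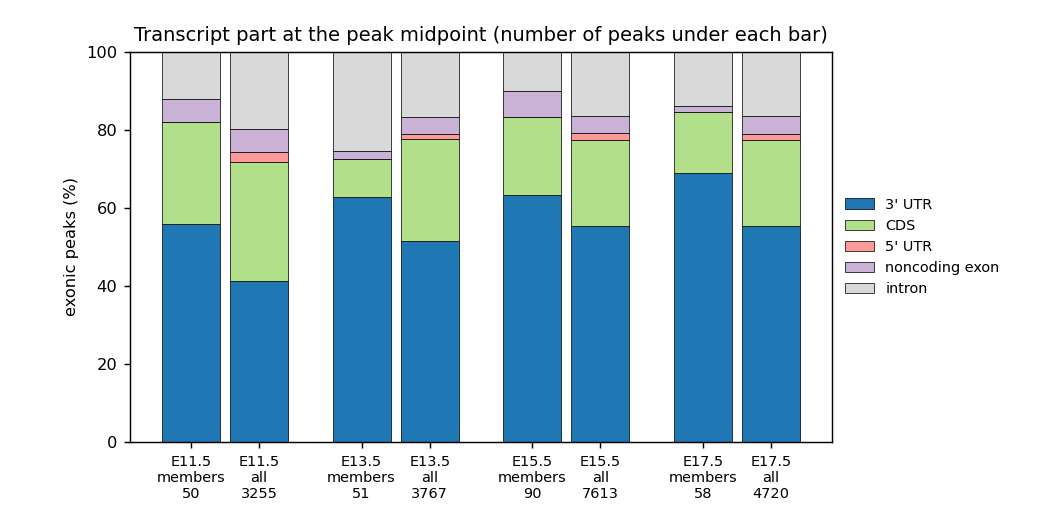
Stacked bars give the percent of exonic peaks by transcript part at the midpoint, for the 180 ubiquitin genes and for all protein-coding genes on each day, with the number of peaks under each bar. With 3′ UTR read first, the 3′ UTR segment is the largest in each bar, and is larger for the ubiquitin genes on all 4 days (56 to 69.0%, against 41.2 to 55.3%). The comparison was not made by the longest isoform.

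The peaks fell on 205 separate positions, of which 33 in 20 genes had peaks on 2 or more days (16.1%, against 15.1% of 16006 positions over all protein-coding genes). Of the 33, 24 were in a 3′ UTR, 27 were on 2 days, 5 on 3 and 1 on 4. All but those of Cul1, Usp10 and Usp11 lay in Ube2 genes. Sequences could be read for 189 peaks of at most 300 nt inside 1 exon. The 151 of these in 3′ UTRs had a median GC content of 44.0%, against 47.9% of 9365 such peaks over all genes, and a median predicted folding energy of -16.8 against -19.4 kcal/mol per 100 nt; the 38 coding peaks had 49.9% GC against 54.2%, and -21.7 against -21.0. The quartiles of the groups overlapped: 36.3 to 50.2% and 39.5 to 54.3% for 3′ UTR GC. Of the 189 peaks, 17 in 11 genes had a near-identical copy in another transcript locus (at least 95% identity over at least 90% of the peak), all of them processed pseudogenes. By day these were 10 on E11.5, 1 on E13.5, 5 on E15.5 and 1 on E17.5. Copies were searched for the ubiquitin genes only, so these counts have no background share.

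Other genes of the pathway were common in the lists as well. Of 177 genes in 7 lists chosen by function, 115 had a peak on some day (65.0%, against 30.1% of all protein-coding genes), 33, 42, 81 and 60 on the 4 days. The lists were chosen with earlier results of these data known, so this share is no independent test. Gene length was not compared for them. The E1 and ubiquitin-like list had 10 of 15 genes, among them Nedd8, the cullin modifier (ranks 1370 on E11.5, 1462 on E15.5 and 189 on E17.5). HECT and RBR ligases had 16 of 27, with Huwe1 and Rnf14 on all 4 days. Huwe1 had its own best rank, 313, on E17.5, where Herc1 ranked 235. RING and U-box ligases had 17 of 25, with Ubr2 at rank 60 and the Polycomb ligase Rnf2 at rank 75 on E15.5. Cullin partners had 19 of 30, with the COP9 signalosome subunit Cops7b best on E17.5 (rank 159). The anaphase-promoting complex had 13 of 16, with its subunit Anapc16 on all 4 days and at rank 86 on E15.5. Other deubiquitinases had 12 of 25, among them Atxn3, the ataxin protease, at rank 512 on E15.5. Proteasome genes had 29 of 40, with Psmb2, Psmc4 and Psmd9 on all 4 days and Psmb7 at rank 55 on E17.5; that list was taken by symbol, so it holds Psmc3ip, which is no subunit, and shares Psmd14 with the deubiquitinases.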

How the data were processed

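RNA was measured in STAU2 RIP and input libraries (3 each) on 4 days. The submitters' processing notes name TopHat2 2.0.9, bedtools 2.17.0 and Cufflinks 2.2.1 and the build mm10; the peak caller is not given in the sources used here, nor its test. The authors deposited 4 columns without names, read here from their values as a score, a signal, a p-value and a q-value (at most 0.01) per peak. Every rank rests on that reading. Depth is unknown. Peaks of a day's strand lists were ranked together by the authors' p (ranks hold within a day) and assigned to GENCODE vM21 genes on their strand; 94.1 to 97.4% of peaks over 1 gene matched its strand. Intervals are exact Clopper-Pearson, 95%. Python 3.11.15, pandas 2.3.3, SciPy 1.17.1, RNAfold 2.7.2 and BLASTN 2.17.0 were used; assignment was tested on simulated data. The members and lists were chosen with earlier results of these data known. Named were genes on all 4 days, the 6 best ranks a day, positions on 3 or more days, cullins, Uba1, Xiap, the 5 with most peaks, and up to 5 on E11.5 or E17.5 alone; Ube2a, Ube2o, Ube2ql1, Usp5, Usp24, the single-day F-box genes other than Fbxo9 and Fbxo38, Fbxo21, Fbxw11 and the pathway genes were named after their values were seen. Values of some genes counted above are not reported here.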

Additional observations from a re-analysis of the deposited data

Results flagged for a closer look

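Peaks that lie wholly inside introns of the ubiquitin genes, on the gene's strand, were not counted above: there were 57 in 16 of the 180 genes (8.89%, against 6.71% of all protein-coding genes). Of the 57, most lay in 5 genes with at least 4 each (2.78% of the genes, against 1.95%). Fbxw4 had 14 intronic peaks, all on E17.5 within 8970 bp of chromosome 19, 50 to 108 bp wide and best at rank 2003 of 6341; it had no exonic peak on any day. Usp24 had 13, of which 6 on E11.5 spanned 1481 bp and 6 on E13.5 spanned 1093 bp elsewhere in the gene (best rank 451 of 5871). Fbxw11 had 8 on E13.5 within 7806 bp, 177 to 2090 bp wide, Fbxo10 had 6 on E15.5 within 2814 bp, and Fbxo3 had 4 on E11.5 within 819 bp (best rank 418 of 6530). None of the peaks of these 5 genes touched an exon of another gene on that strand.

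Opposite to exons of the ubiquitin genes lay 15 peaks, and 9 of them touched no annotated exon on their own strand. They faced Fbxo46, Ube2d3, Ube2e3 (2 peaks, the better at rank 2264 on E13.5), Ube2m, Ube2q1, Ube2v2, Usp11 and Usp16. None was listed on E11.5. Opposite-strand peaks were not counted over all protein-coding genes, so these counts have no background share.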

How the results depend on the processing

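Of 105 recomputed main values, 95 stayed within 1.5 times or within their interval and 10 moved; of the values for single families, lists and genes, 345 stayed and 51 moved. With at least 50% of a peak in exons, 3 genes had a peak on all 4 days in place of 6. In the stronger 50% of each day's peaks, 18 genes had a peak on E13.5, 26 on E15.5 and 25 on E17.5 (10, 14.4 and 13.9%, against 6.94, 12.6 and 8.41% of all protein-coding genes), 0 on all 4 days, 12 were gained from E11.5 to E13.5, 19 lost from E15.5 to E17.5, and 13 positions were on 2 or more days. With each day held to the length of the shortest list, 2 genes were on all 4 days (1.11%, against 1.36%) and 17 were lost from E13.5 to E15.5. Fewer peaks enter in these settings. The gene counts by day, the gains and the losses stayed within 1.5 times without peaks over 5000 bp or over 2 or more genes, as did the gene counts by day with introns included or, chosen after seeing the data, without peaks that have a near-identical copy. The 3′ UTR shares and coding shares, run with 1 peak per gene, with coding sequence read first and without peaks over 5000 bp, stayed too; the longest isoform moved only the 4 coding shares given above. No paired analysis was possible because no file gives values per replicate, and leaving out a replicate could not be run for the same reason. Depth is unknown, so absence from a list sets no limit on binding.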
